A study of Mus musculus with 12 samples.

Results

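The genes described here are 8 markers of the brain vasculature, chosen by name from the 19775 genes of the whole-brain table. They are 6 endothelial genes, Cldn5, Pecam1, Cdh5, Flt1, Tek and Slco1a4, and 2 pericyte genes, Pdgfrb and Rgs5. All 8 were present in the table and all passed the filter on low values. Expression was measured by poly(A) RNA-Seq in the whole brain of 12 male C57BL/6N mice at about postnatal day 120, with 4 wild-type mice (WT), 4 heterozygous mutants (HT; Slc6a20a+/-) and 4 homozygous mutants (HM; Slc6a20a-/-). Slc6a20a encodes a transporter of proline and glycine, and the mutant allele lacks exon 3 in every cell of the body, so no cell type was targeted. The mice came from crosses between heterozygous parents. The values are normalized counts made by the authors, in which each mouse's estimated counts are divided by a size factor.

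The walls of brain capillaries consist of endothelial cells joined by tight and adherens junctions, with pericytes lying on their outer surface within a shared basement membrane. Endothelial cells of the brain form the blood-brain barrier, which limits diffusion between cells and moves nutrients and organic ions through dedicated transporters. Pericytes are recruited and kept in place by platelet-derived growth factor B from the endothelium, which acts on the receptor PDGFRB, and vessel growth and stability are governed by the VEGF and angiopoietin pathways. In whole brain these cells are a minority, and in such bulk samples fewer cells of a type and less RNA per cell cannot be told apart.

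The targeted gene followed the labels. Slc6a20a was at 584 to 750.5 normalized counts in WT (679 ± 70.1, SD, n = 4), at 310.3 to 372 in HT and at 55.6 to 76.5 in HM, with no overlap between genotypes. The sum of normalized counts was nearly the same in all 12 mice and carries no information on sequencing depth, which is therefore unknown here. Over all genes, the limma test with Benjamini-Hochberg adjustment called 1 gene of 18004 in HT against WT, 2 of 18004 in HM against WT and 1 of 17986 in HM against HT at an adjusted p under 0.05.

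The vascular genes were well above the filter in every mouse, and their order per kilobase of transcript in WT ran from Rgs5 to Tek. Rgs5 was at 606 ± 40.1 normalized counts per kb, Cldn5 at 524 ± 123, Slco1a4 at 335 ± 45.1 and Flt1 at 257 ± 32.5. Among these 4 genes each overlapped the next in its range over the WT mice. Pecam1 followed at 157 ± 19.9, Pdgfrb at 134.5 ± 4.72, Cdh5 at 103 ± 12.3 and Tek at 69.9 ± 11.3 (all SD, n = 4). In this lower part of the order only Pecam1 and Pdgfrb overlapped. Of the pericyte genes, Rgs5 was thus the highest of the 8 and Pdgfrb lay between Pecam1 and Cdh5.

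**Figure D1:**
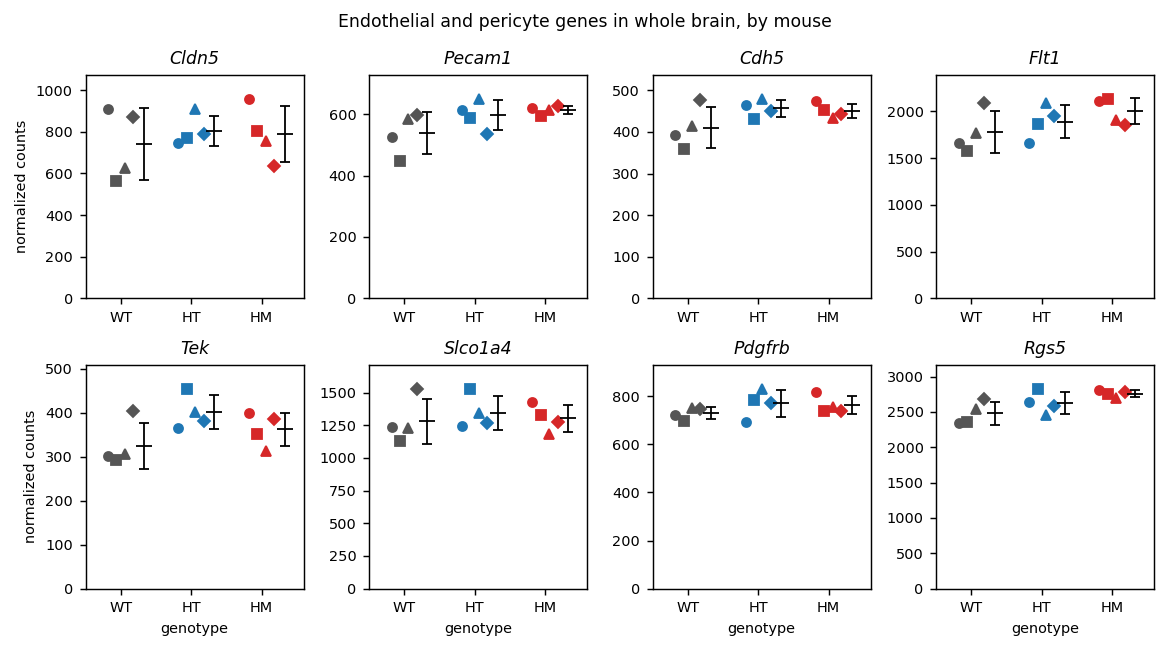
Normalized counts of the 8 vascular genes in each of the 12 mice, with genotype on the horizontal axis and normalized counts on the vertical axis, which starts at 0. Circle, square, triangle and diamond stand for replicates 1, 2, 3 and 4, and the bars give mean ± SD (n = 4). The genotypes overlap for every gene except Rgs5, where the 4 HM mice (2698 to 2804) lie above the 4 WT mice (2341 to 2683).

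Cldn5 (ENSMUSG00000041378, chr16:18776847-18778262, plus strand, GRCm38) encodes claudin-5, the main tight junction strand protein of brain endothelium. It was at 911, 563, 624 and 869 normalized counts in WT mice 1 to 4, at 747, 770.5, 911 and 792 in HT and at 959.7, 802, 757 and 636 in HM. The WT mice split into a high pair and a low pair, and both mutant groups lay within nearly the same range as WT. Means were 742 ± 174 in WT, 805 ± 72.9 in HT and 789 ± 134 in HM. The log2 fold change was 0.14 ± 0.13 (SE) in HT against WT and 0.10 ± 0.15 in HM against WT, with limma adjusted p of 0.898 and 0.921. The HT value ran from 0.02 without WT mouse 2 to 0.25 without WT mouse 1. Within genotypes, Cldn5 had a residual SD of 0.25 on the log2 scale, larger than in 98.6% of genes of like level, so that the 95% interval of the HM difference ran from -0.23 to 0.44.

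Cdh5 (ENSMUSG00000031871, chr8:104101625-104144511, plus strand) encodes VE-cadherin, the cadherin of endothelial adherens junctions. Its WT values were 394, 359, 414 and 476, its HT values 466, 432, 480.4 and 450.0, and its HM values 473, 452, 433 and 443 normalized counts. The lowest 3 of the 12 mice were WT mice, but WT mouse 4 was the second highest, so the groups overlapped. The mean was 411 ± 49.2 in WT, 457 ± 20.9 in HT and 450.4 ± 17.1 in HM. The log2 fold change was 0.16 ± 0.09 in HT (limma unadjusted p = 0.0885, adjusted p = 0.800) and 0.14 ± 0.09 in HM (unadjusted p = 0.131, adjusted p = 0.774).

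Pecam1 (ENSMUSG00000020717, chr11:106654217-106750628, minus strand) encodes CD31, an adhesion molecule at endothelial cell contacts that platelets and some leukocytes also carry. It was at 526, 447, 584 and 598 normalized counts in WT, at 613, 589, 651 and 537 in HT and at 619, 596, 615 and 627 in HM. The HM mice lay close together (614 ± 13.3), with 3 of them above every WT mouse and HM mouse 2 just below the highest of them. In HM against WT the log2 fold change was 0.20 ± 0.09, with a 95% interval from 0.01 to 0.38, an unadjusted limma p of 0.0396 and an adjusted p of 0.697. The exact two-sided permutation test of 4 against 4 mice gave p = 0.0571, where 0.0286 is the smallest that this design allows. HT were at 597 ± 47.8 against 539 ± 68.6 in WT, a log2 fold change of 0.15 ± 0.09 (limma adjusted p = 0.833). Of the 31-base words in Pecam1 transcripts, 2.50% also occur in transcripts of other genes, so a small part of its count is uncertain.

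Flt1 (ENSMUSG00000029648, chr5:147561604-147726011, minus strand) encodes VEGFR1, which binds VEGF tightly and is known as a decoy that restrains signalling through the related receptor KDR. The RefSeq promoter is shown because it held the most searched motifs among the 5 of these genes for which such a promoter was listed. It covers the 250 bases before the start site on the minus strand at chr5:147726012-147726261 of GRCm38.p6, read 5′ to 3′ along the gene. Capitals mark AGGAAG, the core word of ETS factors, the TATA word TATAAA, and GGGTG, which is the KLF/SP word CACCC on the other strand.
Flt1: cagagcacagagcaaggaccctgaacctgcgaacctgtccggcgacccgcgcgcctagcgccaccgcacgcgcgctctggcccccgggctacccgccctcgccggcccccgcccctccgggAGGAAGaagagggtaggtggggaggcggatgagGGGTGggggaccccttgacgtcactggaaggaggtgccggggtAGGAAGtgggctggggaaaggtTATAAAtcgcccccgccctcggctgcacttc
The copies of AGGAAG lay 48 to 53 and 124 to 129 bases before the start, and TATAAA lay 26 to 31 bases before it. AGGAAG was found on either strand in 29.5% of 32851 promoter windows of this length, TATAAA in 12.4% and CACCC in 52.0%, and no searched words overlapped.

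Flt1 was at 1664, 1575, 1773 and 2089 normalized counts in WT, at 1664, 1859, 2094 and 1945 in HT and at 2111, 2137, 1907 and 1855 in HM. The HM mice were above 3 of the 4 WT mice, and WT mouse 4 lay within their range. The mean was 1775 ± 224 in WT, 1891 ± 179 in HT and 2002 ± 142 in HM. In HM against WT the log2 fold change was 0.18 ± 0.08, with a 95% interval from 0.01 to 0.35, an unadjusted limma p of 0.0439 and an adjusted p of 0.701, and the exact permutation p was 0.114. In HT against WT it was 0.09 ± 0.09 (limma adjusted p = 0.896).

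Tek (ENSMUSG00000006386, chr4:94739289-94874976, plus strand) encodes TIE2, the endothelial receptor of the angiopoietins. Its promoter is shown for comparison with that of Slco1a4, since the levels of these genes followed each other across mice. The window is chr4:94739039-94739288 of GRCm38.p6, plus strand, from RefSeq, with CACCC and the SOX word ACAAAG in capitals.
Tek: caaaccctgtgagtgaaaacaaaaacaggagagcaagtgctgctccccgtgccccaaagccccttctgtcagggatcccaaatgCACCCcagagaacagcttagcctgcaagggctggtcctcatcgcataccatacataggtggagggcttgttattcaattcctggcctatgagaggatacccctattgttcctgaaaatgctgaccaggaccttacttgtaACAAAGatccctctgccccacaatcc
ACAAAG lay 21 to 26 bases before the start and occurred in 16.5% of all windows, and CACCC lay 162 to 166 bases before it. Neither the ETS words AGGAAG and CGGAAG nor the GATA word AGATAA was in this window.

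Tek had, in HT, the largest difference from WT found for any of the 8 genes in either mutant. It was at 300.3, 292, 305 and 403 normalized counts in WT, at 366, 454, 402 and 381 in HT and at 398, 351, 313 and 386 in HM. All HT mice were above WT mice 1 to 3, while WT mouse 4 was above 3 of the 4 HT mice. The mean was 325 ± 52.5 in WT, 401 ± 38.6 in HT and 362 ± 38.1 in HM. The log2 fold change in HT against WT was 0.31 ± 0.11, with a 95% interval from 0.08 to 0.54 and an unadjusted limma p of 0.0135. The adjusted p was 0.768, 295 other genes of 18004 had a smaller p, and the exact permutation p was 0.114. In HM against WT the log2 fold change was 0.16 ± 0.11 (limma adjusted p = 0.805). The HT difference was 0.42 without WT mouse 4, the value far from the other WT mice, and 0.25 without HT mouse 2, with unadjusted limma p of 6.15e-04 and 0.0501 and adjusted p of 0.739 and 0.820.

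Slco1a4 (ENSMUSG00000030237, chr6:141805440-141856199, minus strand) encodes OATP1A4, an organic anion transporter of the blood-brain barrier. Its RefSeq promoter on the minus strand at chr6:141856221-141856470 carries CTTCCT, which is AGGAAG on the other strand, and CACCC, both in capitals.
Slco1a4: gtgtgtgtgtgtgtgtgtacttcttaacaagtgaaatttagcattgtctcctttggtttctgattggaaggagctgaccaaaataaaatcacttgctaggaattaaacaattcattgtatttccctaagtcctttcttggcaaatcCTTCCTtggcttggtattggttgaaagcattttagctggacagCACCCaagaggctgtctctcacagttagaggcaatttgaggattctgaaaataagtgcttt
These words lay 99 to 104 and 57 to 61 bases before the start. The window held 39.2% G and C, against 51.2% for Tek and 70.4% for Flt1, and shared with the Tek window only the word CACCC among those searched.

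Slco1a4 showed the smallest difference in the homozygous mutants. It was at 1238, 1129, 1232 and 1530.2 normalized counts in WT, at 1245, 1530.0, 1348 and 1266 in HT and at 1427, 1332, 1179.7 and 1275 in HM. WT mouse 4 and HT mouse 2 were the highest of the 12 mice and nearly equal, and the groups overlapped broadly. Means were 1282 ± 173, 1347 ± 129.6 and 1303 ± 104. The log2 fold change was 0.08 ± 0.09 in HT and 0.03 ± 0.09 in HM (limma adjusted p = 0.911 and 0.961), and the 95% interval in HM ran from -0.16 to 0.22. Of the 31-base words in Slco1a4 transcripts, 5.03% also occur in other genes, mostly in Slco1a5, but the listed Slco1a5 and Slco1b2 summed to only 3.42 to 31.2 normalized counts in a mouse.

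Rgs5 (ENSMUSG00000026678, chr1:169655501-169695813, plus strand) encodes a regulator of G protein signalling that is abundant in pericytes and vascular smooth muscle. Its promoter, chr1:169655251-169655500 on the plus strand, is shown because Rgs5 had the smallest p of the 8 genes. Capitals mark TTATCT, which is the GATA word AGATAA on the other strand.
Rgs5: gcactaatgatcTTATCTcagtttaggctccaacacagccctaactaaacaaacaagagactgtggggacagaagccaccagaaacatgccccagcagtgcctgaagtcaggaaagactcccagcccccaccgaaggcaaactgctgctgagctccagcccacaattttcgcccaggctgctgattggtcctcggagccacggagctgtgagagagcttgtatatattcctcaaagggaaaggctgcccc
This word lay 233 to 238 bases before the start and occurred in 9.99% of all windows, and it was in none of the other 4 member promoters in the RefSeq table. The fifth of these, that of Cldn5, held only CACCC among the words searched.

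Rgs5 was at 2341, 2353, 2546 and 2683 normalized counts in WT, at 2635, 2829.6, 2456 and 2586 in HT and at 2804, 2754, 2698 and 2783 in HM. Every HM mouse was above every WT mouse, although the nearest pair, 2698 and 2683, was almost equal, and HT spanned the gap. The mean was 2481 ± 164 in WT, 2627 ± 155 in HT and 2760.0 ± 46.1 in HM. In HM against WT the log2 fold change was 0.16 ± 0.05, with a 95% interval from 0.05 to 0.26 and an unadjusted limma p of 0.00767. After adjustment p was 0.650, with 207 other genes of 18004 at a smaller p. The exact permutation p was 0.0286, the smallest that 4 against 4 mice allow, and 2.41% of all genes tested also had 4 HM mice above 4 WT mice. In HT against WT the log2 fold change was 0.08 ± 0.06 (limma adjusted p = 0.857).

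Pdgfrb (ENSMUSG00000024620, chr18:61045150-61085061, plus strand) encodes the receptor through which pericytes respond to PDGF-B. It was at 724, 696, 750.2 and 749 normalized counts in WT, at 693, 784, 832 and 774 in HT and at 819.8, 739.9, 756 and 740.0 in HM. The WT mice varied little. HT mice 2 to 4 lay above all of them and HT mouse 1 just below, while in HM a pair of mice lay above the WT range and a pair within it. Means were 729.6 ± 25.6, 771 ± 57.8 and 764 ± 38.0. The log2 fold change was 0.08 ± 0.07 in HT and 0.07 ± 0.06 in HM, with limma adjusted p of 0.887 and 0.838.

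Set side by side, all 8 genes had a higher mean in HT than in WT and a higher mean in HM than in WT, with median log2 fold changes of 0.12 and 0.15. The HT median was 0.06 without WT mouse 2 and 0.19 without WT mouse 4, and the HM median was 0.09 and 0.20. Both comparisons use the same 4 WT mice, so they are not separate evidence. Of all genes tested, 50% were higher in HT and 49.8% higher in HM, and the median log2 fold change over all genes was within 0.01 of 0 in each comparison. None of the 8 genes passed an adjusted p under 0.05 in HT against WT, where 0.00555% of all genes did, or in HM against WT, where 0.0111% did. At an unadjusted p under 0.05, limma gave 1 gene in HT against WT, Tek, beside 6.42% of all genes. It gave 3 in HM against WT, Pecam1, Flt1 and Rgs5, beside 6.99% of all genes. Without WT mouse 4 these counts were 4 and 5, beside 1086 and 1133 of 18004 genes, against 1156 and 1258 with all mice. The HT count was 0 without HT mouse 2, beside 1089 of all genes. The HM count was 1 without WT mouse 1, WT mouse 2 or HM mouse 1, beside 1201, 1459 and 1027 of all genes. Groups that did not overlap were seen in 1 of the 24 comparisons of a gene between genotypes, that of Rgs5. The genotype named first lay wholly above the other in 1.82% of all genes for HT against WT, in the 2.41% given above for HM against WT and in 1.24% for HM against HT. With either direction counted, the number among the 24 was 8 without WT mouse 4. It was 2 without HT mouse 1, HT mouse 2 or HM mouse 2. Fewer mice separate more readily, and no share over all genes was computed for these settings. The 95% intervals of all 24 member comparisons lay below a 1.5-fold increase, and the highest upper bound was 45.7% above WT, for Tek in HT.

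**Figure D2:**
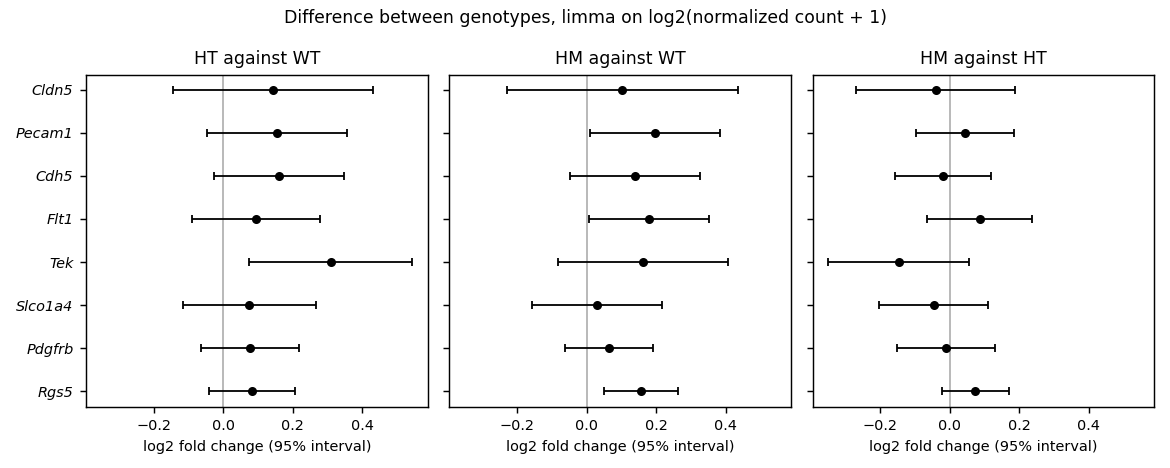
Log2 fold change (horizontal axis) of the 8 vascular genes in HT against WT, HM against WT and HM against HT, as points with 95% intervals from limma on log2(normalized count + 1). Points lie right of 0 for all 8 genes in both comparisons with WT, and the interval excludes 0 only for Tek in HT and for Pecam1, Flt1 and Rgs5 in HM, before adjustment over all genes.

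The heterozygous and homozygous mutants were compared directly to ask whether the vascular genes differed between them. In HM against HT, 3 of the 8 genes had a higher mean in HM (Pecam1, Flt1 and Rgs5), beside 49.5% of all genes, and the median log2 fold change was -0.02, or -0.04 to 0.02 when single mice were left out. The values ran from -0.15 for Tek to 0.09 for Flt1, with 95% intervals that reached from -21.5% to 17.7%. No gene passed an unadjusted p under 0.05, against 3.74% of all genes, or an adjusted p under 0.05, against 0.00556%, and the smallest unadjusted limma p was 0.125. Without HT mouse 2, 1 gene passed the unadjusted threshold, Rgs5, at a log2 fold change of 0.11 (limma adjusted p = 0.998), beside 665 of 17986 genes. The difference between the effects of the mutant genotypes on Tek, for which only HT was past the unadjusted threshold against WT, had an unadjusted limma p of 0.139 and an adjusted p of 1.00.

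Much of the variation in the endothelial genes was between mice of the same genotype. WT mouse 2 was the lowest of the 12 mice for all 6 endothelial genes and among the lowest 2 for all 8 vascular genes. WT mouse 4 was the highest for Slco1a4 and above the mean for every endothelial gene. Averaged over the 6 endothelial genes, the log2 level relative to the mean of 12 mice was -0.09, -0.31, -0.13 and 0.15 in WT mice 1 to 4. It was -0.02, 0.09, 0.15 and 0.01 in HT and 0.16, 0.05, -0.05 and -0.02 in HM. All WT mice except mouse 4 lay below every mutant mouse, the lowest of which was at -0.05. The WT range thus covered nearly all the mutant mice only through WT mouse 4, at 0.15. The spread of the WT mice (SD 0.19) exceeded that of HT (0.08) and HM (0.09). For the 2 pericyte genes the means were -0.06 ± 0.07 in WT, 0.02 ± 0.06 in HT and 0.05 ± 0.04 in HM. The pericyte mean minus the endothelial mean was 0.03 ± 0.14 in WT, -0.04 ± 0.06 in HT and 0.01 ± 0.06 in HM.

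**Figure D3:**
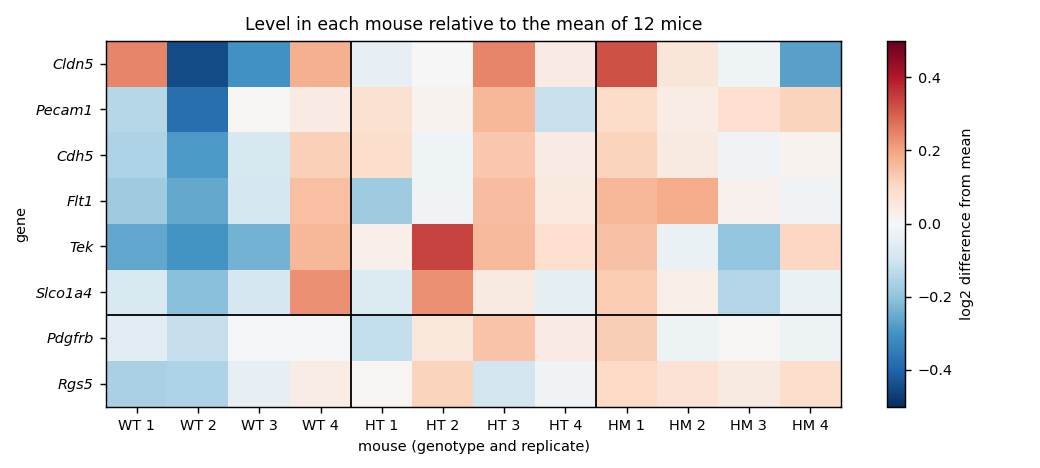
Log2 level of each vascular gene (vertical axis; endothelial genes above the line, pericyte genes below it) in each mouse (horizontal axis) relative to the mean of the 12 mice, with the scale in the colour bar. WT mouse 2 is blue for every gene and WT mouse 4 is red for all 6 endothelial genes, and no mutant mouse is blue for all 8 genes.

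The vascular genes moved together across the 12 mice. All 28 pairs had a positive Pearson r, with a median of 0.59 and a range of 0.14 to 0.85, and the median was 0.53 after each genotype was centred on its own mean. The median r was 0.62 among the 15 endothelial pairs and 0.58 among the 12 pairs of an endothelial with a pericyte gene, whereas Pdgfrb and Rgs5 gave 0.31. The 12 mice share their libraries between genes, so depth and RNA quality are common to both genes of a pair. The median fell to 0.43 without WT mouse 2, and to 0.34 when each pair lost the 2 mice with the most extreme values of its first gene, with values from -0.43 to 0.81.

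In permutation tests, 5 of the 28 pairs passed an adjusted p under 0.05 by Pearson r (Benjamini-Hochberg over the 28 pairs), and only Tek with Slco1a4 also passed by Spearman rho. Tek and Slco1a4 had r = 0.85 (permutation p = 5.50e-04, adjusted p = 0.0154) and rho = 0.92 (permutation p = 9.00e-05, adjusted p = 0.00252). Their r was 0.81 without the 2 most extreme mice for Tek, 0.94 with genotypes centred, and 0.79 to 0.87 when each mouse in turn was left out. The relation was therefore present within genotypes as well as over all mice. For Pecam1 and Cdh5 r was also 0.85 (permutation adjusted p = 0.0187). It was 0.79 with genotypes centred and 0.65 to 0.90 when each mouse in turn was left out. It was 0.39 without the 2 most extreme mice for Pecam1, a step that also narrows the range of Pecam1. The other 3 pairs were Cdh5 with Flt1 (r = 0.78, and 0.52 without those mice), Cdh5 with Tek (0.73 and 0.50) and Flt1 with Pdgfrb (0.74 and 0.81).

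**Figure D4:**
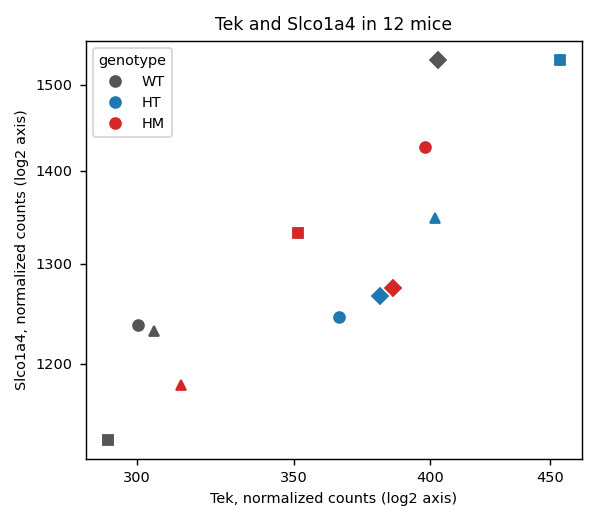
Normalized counts of Tek (horizontal axis) and Slco1a4 (vertical axis) in the 12 mice, both on log2 axes. Colour gives the genotype, and circle, square, triangle and diamond stand for replicates 1 to 4. The mice lie along a rising line (r = 0.85, rho = 0.92) from WT mouse 2 (292 and 1129) to HT mouse 2 (454 and 1530.0).

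The genes whose pattern was most like that of the endothelial mean were sought among 13118 genes with at least 100 normalized counts on average. Over the 12 mice, the highest Pearson r was that of Itga6, an integrin subunit present in brain endothelium and other cells (r = 0.94, rho = 0.96). It was followed by Itpkb (0.93), Arhgef19 (0.93), Prdx6 (0.93) and Pbxip1 (0.92), of which Prdx6 is a peroxiredoxin known from astrocytes. The genes most like the pericyte mean were Nfia (0.92), a transcription factor of glia, then Cd93 (0.91), Tie1 (0.90), Ptprb (0.89) and Pcdhgc3 (0.87). CD93, TIE1 and VE-PTP, the product of Ptprb, are endothelial membrane proteins. These correlations are descriptions of 12 mice that were ranked over all genes.

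The remaining vascular genes were taken from 7 lists holding 89 genes, all measured. None passed an adjusted p under 0.05 in any comparison. Of the 89, 56 had a higher mean in HT than in WT (median log2 fold change 0.02) and 67 in HM than in WT (0.06). At an unadjusted limma p under 0.05, 2 were higher and 3 lower in HT, beside 3.16% of all genes higher and 3.26% lower. In HM 9 were higher and 1 lower, beside 3.93% and 3.05% of all genes. In HM against HT the counts were 9 higher and 1 lower, beside 2.11% and 1.62%.

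Among the 12 other VEGF and angiopoietin pathway genes, 9 had a higher mean in HT (median 0.08) and 11 in HM (median 0.16), and 2 and 3 of them had an unadjusted limma p under 0.05. Flt4, the receptor VEGFR3, was at 101, 111, 142 and 127 normalized counts in WT, at 158, 157, 142 and 137 in HT and at 149, 145, 152 and 164 in HM. All HM mice were above all WT mice, and the log2 fold change was 0.35 ± 0.12 (limma unadjusted p = 0.0138, adjusted p = 0.655). For HT against WT it was 0.31 ± 0.13 (limma unadjusted p = 0.0274, adjusted p = 0.770). Nrp2, a VEGF co-receptor that neurons also use for semaphorins, had the smallest p of the list in HT, with a log2 fold change of 0.17 ± 0.06 (limma adjusted p = 0.768). Its log2 fold change in HM was 0.16 ± 0.06 (limma unadjusted p = 0.0293, adjusted p = 0.673). The ligand gene Vegfa had the smallest p in HM against HT (0.17 ± 0.06, limma adjusted p = 1.00).

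The medians of the junction, PDGF, transport and identity lists ran from 0.01 to 0.09 in the comparisons with WT. Of 11 further junction and adhesion genes, 9 had a higher mean in HT (median 0.02) and 6 in HM (0.04), and Jam2, a junctional adhesion molecule, was the only gene with an unadjusted limma p under 0.05 against WT (HM, 0.10 ± 0.05). Among 5 PDGF pathway genes the medians were 0.09 in HT and 0.02 in HM with none at an unadjusted p under 0.05, Pdgfb itself being at 0.08 ± 0.07 in HM. The 14 barrier transport genes had medians of 0.05 and 0.03. Within that list Slc2a1, the barrier's glucose transporter and its most abundant gene per kb, was at -0.17 ± 0.08 in HT (limma unadjusted p = 0.0457, adjusted p = 0.770). Slc38a5, an amino acid transporter, was at 0.71 ± 0.24 in HM (unadjusted p = 0.0120, adjusted p = 0.655). Its normalized counts were low, at 33.6 to 77.5 in WT and 61.2 to 87.4 in HM, and the ranges overlapped through WT mouse 1. The 24 endothelial identity genes had medians of 0.01 in HT and 0.09 in HM, with Ly6a at -0.18 ± 0.07 in HT and Vwf, von Willebrand factor, at 0.36 ± 0.14 in HM.

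Other genes of mural cells lay on both sides of 0. Of 15 other pericyte and mural genes, 5 had a higher mean in HT (median -0.05) and 9 in HM (median 0.01). Abcc9, the channel subunit SUR2 of pericytes, was at 303, 361, 337 and 328 normalized counts in WT, at 305, 361, 309.6 and 334 in HT and at 375, 373, 404 and 414 in HM. Its HM mice were above all others, with log2 fold changes of 0.24 ± 0.08 against WT and 0.26 ± 0.08 against HT (limma unadjusted p = 0.0101 and 0.00550, adjusted p = 0.655 and 1.00). Tbx18, a mural transcription factor, had a lower mean in HT, at -0.43 ± 0.16 (limma unadjusted p = 0.0176, adjusted p = 0.768). Its mean was also lower in HM, at -0.41 ± 0.16 (limma unadjusted p = 0.0214, adjusted p = 0.670). Of 8 smooth muscle genes, 5 had a higher mean in HT (median 0.07) and 7 in HM (median 0.10). Acta2, smooth muscle actin, was at 351, 312, 381 and 370.4 in WT, at 368, 337, 394 and 416 in HT and at 426, 433, 449 and 399.8 in HM. All HM mice were above all WT mice, with a log2 fold change of 0.28 ± 0.08 (limma unadjusted p = 0.00480, adjusted p = 0.643).

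**Figure D5:**
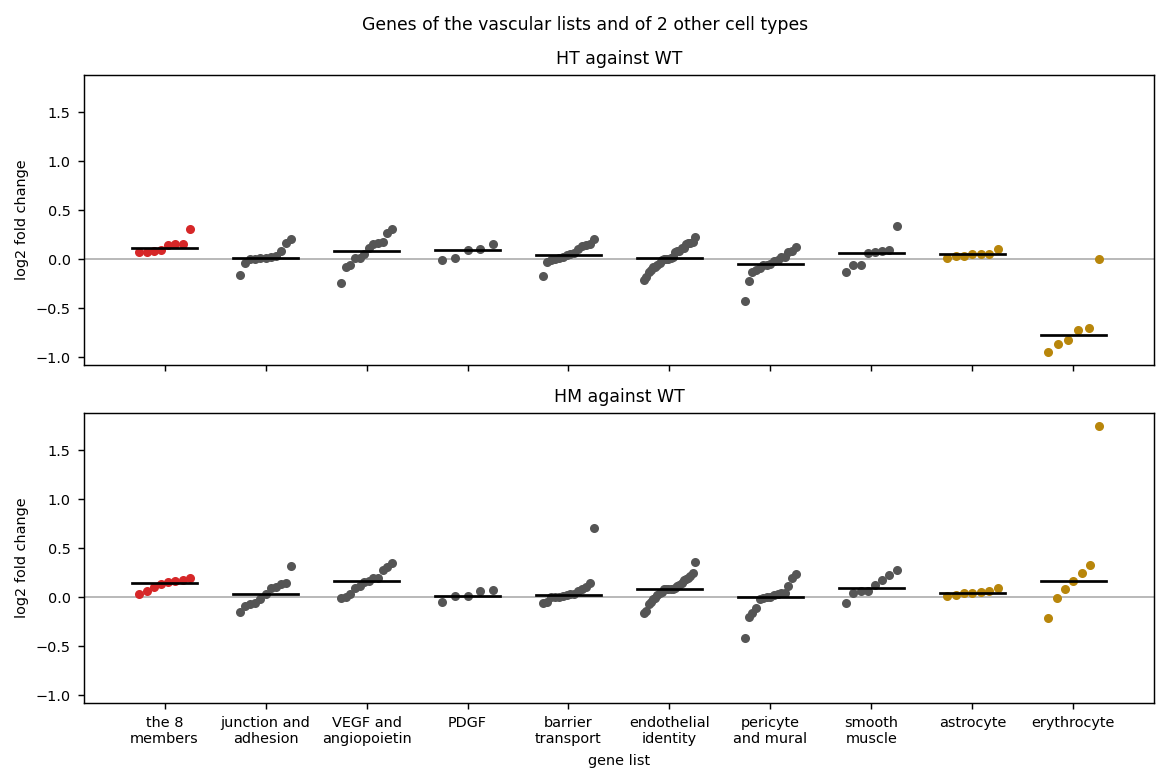
Log2 fold change (vertical axis) in HT against WT and HM against WT for each tested gene of the lists named on the horizontal axis, as points, with a bar at each list's median. The 8 vascular genes (red) lie between 0.03 and 0.31, the other vascular lists (grey) spread on both sides of 0, and the erythrocyte genes (ochre) have a median of -0.78 in HT.

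Markers of other cell types varied beside these values. Of 6 erythrocyte genes tested in HT against WT, 5 were lower at an unadjusted limma p under 0.05 (median -0.78), and 1 of 7 was higher in HM (median 0.16). The summed level of the 7 erythrocyte genes in the table was 13254 to 27868 normalized counts in WT, 12110 to 14090 in HT and 11333 to 34570 in HM, and none was at 0 in any mouse. All 7 astrocyte genes had a higher mean in both mutants (median 0.05 in each), with Slc1a2, a glutamate transporter, at an unadjusted limma p of 0.0433 in HT, and sums of 127031 to 139751 in WT, 138811 to 143232 in HT and 138941 to 141289 in HM. Over the 12 mice, the astrocyte genes had a median r of 0.58 to the endothelial mean. Choroid plexus genes had medians of -0.11 in HT and -0.46 in HM, with 3 of 8 lower in HM at an unadjusted limma p under 0.05, and sums of 15572 to 20184, 12886 to 20603 and 10137 to 18329. Microglial genes had medians of -0.02 and -0.11, with 2 of 7 lower in HM. Fibroblast and meningeal genes were at -0.12 and -0.15, oligodendrocyte genes at -0.04 and -0.02 and neuronal genes at 0.04 and 0.06. At that threshold against WT, 1 fibroblast gene was lower (Lum, in HT), no oligodendrocyte gene passed, and 2 neuronal genes were higher (Gad2 in HT and Syt1 in HM). The 4 tested genes of platelets and leukocytes, cells that can carry Pecam1, had none. None of these genes passed an adjusted p under 0.05, and the part of these cell types in the values of the vascular genes was not tested.

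The mice carry animal numbers that begin with 4 different 3-digit starts, whose meaning the sources used here do not give. Start and genotype are partly confounded: 1 start holds 2 HM mice and no others, and another holds 2 HT and 2 WT mice and no HM mouse. HM and WT mice meet in only 2 starts, with 1 mouse of each genotype in each, and HM and HT mice in 1. Comparisons within a start rest on 1 or 2 mice a genotype and have no test. In HT against WT, 8 of the 8 vascular genes were higher in HT within one start (median log2 difference 0.30) and 6 of 8 within another (0.07). In HM against WT, 6 of 8 were higher in HM within one start (0.10) and 8 of 8 within another (0.24). The larger value of each pair comes from the start that holds WT mouse 2, the mouse with the lowest endothelial values. Without WT mouse 2, Cldn5 and Slco1a4 had log2 fold changes of -0.02 and -0.03 in HM against WT, so that 6 of the 8 genes were then higher in HM.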

How the data were processed

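Whole-brain poly(A) libraries were sequenced as paired reads of 100 bases. Per the labels and methods, the authors estimated transcript abundance with Salmon 1.1.0 on GRCm38 and summarised it per gene. The deposited signal is a table of counts that the authors normalized with DESeq2 1.30.1, for 19775 genes in 12 mice, 4 per genotype. Whole reads were not recovered from it, since at most 45.6% of low values in a mouse were whole multiples of a unit (tolerance 0.05), so no count model was fitted and depth is unknown. The columns named KO hold the homozygous mice. Of the gene IDs, 19758 matched a GENCODE symbol.

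For each of the 3 comparisons, limma 3.58.1 (R 4.3.3; moderated test with a trended variance prior, Benjamini-Hochberg adjustment over all genes tested) was run on log2(normalized count + 1) of the 8 mice compared. Genes averaging under 10 normalized counts in them were left out. Fold changes are on that scale. Single values were tested with exact permutation tests, and pairs of genes with permutation tests of 100000 resamples (Python 3.11.15, scipy 1.17.1). Scripts were tested on simulated data.

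The named genes are the 8 members, Slc6a20a, the gene with the smallest p in each list and comparison, each list's most abundant gene per kb, and the 5 genes most correlated with each member mean. Genes named outside this rule were chosen after their values were seen, and are named as such. The members and lists were chosen with earlier results of these data known. Litters and batches are not given in the sources used here, so p-values measure the spread between these mice. Same-numbered mice did not deviate together (r of deviations from -0.07 to 0.09). Alternatives covered the pseudocount, the filter, normalization, the variance prior, transcript length and GC content, blocks and leaving out each mouse.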

Additional observations from a re-analysis of the deposited data

Results flagged for a closer look

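Tek in WT was the only group with a mouse far from the rest among the 24 groups of 4 mice formed by the 8 vascular genes and 3 genotypes. WT mouse 4 was at 403 normalized counts, the other WT mice were at 292 to 305, and the gap was 0.88 of the group's range, above Dixon's 95% critical value for 4 samples. Chance flags about 1 in 20 such groups.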

How the results depend on the processing

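No vascular gene passed an adjusted p under 0.05 under any alternative, and the lowest limma adjusted p was 0.639 in HT against WT, 0.471 in HM against WT and 0.943 in HM against HT. Signs were kept in 128 of 128 alternatives for HT against WT, 124 of 128 for HM against WT and 118 of 128 for HM against HT. At an unadjusted p under 0.05, HT against WT gave 2 genes with a block for the start of the animal number and 0 to 4 when single mice were left out. HM against WT gave 1 with a variance prior without trend and 1 to 5 when single mice were left out, and HM against HT gave 0 to 1. With a replicate block, whose numbers do not pair the mice, these counts were 1, 2 and 0, and no adjusted call was gained. Over all genes at that threshold, leaving out single mice gave 897 to 1246, 1006 to 1459 and 653 to 752 genes in the same order of comparisons. Comparisons without overlap numbered 2 after quantile normalization and 1 to 8 when single mice were left out, with no share over all genes computed beside them. The median r of pairs was 0.43 to 0.64.

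The block for the animal number turned Cldn5 in HM against WT to -0.0459 and Pdgfrb in HM against HT to 0.0061. Genotypes share few starts, so these values rest on 1 HM against 1 WT mouse in each of 2 starts, and on 1 HM against 2 HT mice. The same block raised Cldn5 in HT against WT to 0.295. Among alternatives that kept all mice, the highest values in HM against WT were 0.356 for Pecam1 and 0.223 for Rgs5. When single mice were left out, HM against WT ran from -0.0185 to 0.212 for Cldn5 and from -0.0286 to 0.117 for Slco1a4. HM against HT ran from -0.140 to 0.0576 for Cldn5, -0.0071 to 0.0854 for Pecam1, -0.0471 to 0.0042 for Cdh5, -0.0911 to 0.0163 for Slco1a4 and -0.0613 to 0.0268 for Pdgfrb. Over all genes, adjusted calls numbered 0 to 5 in HT against WT, 1 to 3 in HM against WT and 1 to 7 in HM against HT. The causes were not tested. With normalized counts only, count models could not be run, and depth is unknown.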

Other observations

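Not every endothelial gene followed the endothelial mean across mice. Of the 89 other vascular genes, 68 had a positive Pearson r to the mean of the 6 endothelial members over the 12 mice (median 0.30), and 21 had a negative one. The highest were Pdgfb (0.92), Kdr (0.91) and Eng (0.91), which encode the ligand of PDGFRB, the main VEGF receptor and endoglin. The lowest were Cd34 and Slc2a1, both at -0.72, which encode a sialomucin of endothelial and progenitor cells and the glucose transporter of the barrier. These genes were chosen after their values were seen. Slc2a1 was at 4875, 5777, 5953 and 4524 normalized counts in WT mice 1 to 4, at 4679, 4959, 4270.2 and 4725 in HT and at 3970.4, 4827, 5446 and 6375 in HM. Its WT mouse 4, high for the endothelial members, was thus the lowest WT mouse for Slc2a1, and WT mouse 2, low for the members, was among the highest. Cd34 was at 1781, 1859, 1828 and 1455 in WT, where mouse 4 was again lowest and mouse 2 highest. The r of Slc2a1 was -0.65 without the 2 mice farthest from the median.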
